A study of Mus musculus with 6 samples.

Results

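Mitochondria continually join and divide, and the balance of both processes sets their shape, their distribution in the cell and how damaged pieces are set apart. Fusion is carried out by large GTPases: the mitofusins MFN1 and MFN2 join the outer membranes, and OPA1 joins the inner membranes and keeps the cristae in shape. Fission is carried out by the dynamin-related GTPase DRP1, the product of Dnm1l, which is recruited from the cytosol by outer membrane proteins such as MFF and FIS1 and constricts the organelle. OPA1 is itself cut by the inner membrane proteases OMA1 and YME1L1, and the phosphatase PGAM5 acts on DRP1. Pieces released by fission can be removed by autophagy, the process in which Atg5 acts.

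The expression of 10 mitochondrial fusion and fission genes was analysed in LSK cells (lineage marker-negative, Sca1+, cKit+ cells, the bone marrow fraction that holds haematopoietic stem and progenitor cells). The genes were the fusion GTPases Mfn1, Mfn2 and Opa1, the fission genes Dnm1l, Fis1, Mff and Gdap1, the OPA1 proteases Oma1 and Yme1l1, and the phosphatase Pgam5. They were found by exact match of the gene symbol printed beside each probe, which gave 25 of 56605 probes, and 10 of 27248 gene symbols. The control (Atg5w/w;Vav) and Atg5f/f;Vav mice were all C57BL/6, carried the Vav-iCre transgene and were between postnatal days 6 and 8. In the Atg5f/f;Vav mice both Atg5 alleles were floxed, and Vav-iCre, which is active in haematopoietic cells from fetal life onwards, was used to remove the gene there. Each group held 3 samples, hybridised to 1-colour 60-mer arrays designed on the mouse genome build mm9. The number of mice behind a sample is not given, and the p-values therefore measure only how far these samples spread, which may be technical. A level is the log2 intensity minus the 75th percentile of its array. Levels of different probes were not compared with each other, since probes differ in how well they bind. The exceptions were the choice of the probe that represents a gene, and differences between probes of 1 gene within an array, set between the groups.

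All 6 arrays lay on 1 slide in 1 scan, with the control arrays in row 1 and the others in row 2, so that row and genotype cannot be told apart. The LSK markers Kit, Ly6a, Cd34 and Flt3 were well above background on all 6 arrays and did not move together. Ly6a, which encodes the gate marker Sca1, passed as higher in Atg5f/f;Vav (log2 fold change 1.57, limma adjusted p = 0.00623), while Flt3 (-0.87, 0.0675), Kit, the other gate marker (-0.38, 0.0563), and Cd34 (-0.27, 0.36) did not pass, and the summed level of the 4 ranged from 121.3 to 131.3 in control and from 79.8 to 134.5 in Atg5f/f;Vav. Markers of other cell types also gave signal. For the stromal markers Col1a1, Col1a2, Sparc and Pecam1 the summed linear level ranged from 2.39 to 30.95 on the control arrays. On the others it ranged from 1.17 to 1.53. Of these 4, 3 passed the test as lower in Atg5f/f;Vav. Col1a1 was at -4.14 in control replicate 1 against 3.23 and 2.95 in control replicates 2 and 3. Of the 4 erythroid markers, 2 passed the test as higher and 1 as lower in Atg5f/f;Vav, and their sum ranged from 5.29 to 13.97 in control and from 5.70 to 22.3 in Atg5f/f;Vav. The neutrophil sum ranged from 107.9 to 182.9 and from 183.8 to 215.8, and of its 4 markers 2 were higher and 1 was lower. Among 3 markers each of other types, 1 B cell marker was higher, 1 megakaryocyte marker was higher and 1 lower, and no macrophage or T cell marker passed, with Cd8a not well above background on any array. The part of these signals in the results below was not tested, and in bulk samples fewer cells of a type and less RNA per cell cannot be told apart. The Atg5 probe (chr10:44083997-44084056) read 1.10, 0.93 and 1.06 in control and 1.46, 1.51 and 1.74 on the arrays labelled Atg5f/f;Vav, a log2 fold change of 0.54 ± 0.12 (SE, limma adjusted p = 0.0209). The reading was thus higher where the genotype removes Atg5. The place of the probe relative to the deleted exon was not determined. The labels alone set the directions below.

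5 probes that matter for the comparisons below are shown in full, as the scanner files give them. Each holds at least 1 reading frame with no stop codon, and each is set later against another probe of its gene. The 60 bases of the Opa1 probe span 424 bases of chromosome 16 (chr16:29629784-29630207), so that they cross an exon junction. The Mff probe likewise spans 15860 bases of chromosome 1 (chr1:82727811-82743670) and the Fis1 probe 306 bases of chromosome 5 (chr5:137441507-137441812). The Mfn1 probe (chr3:32461937-32461996) and the Yme1l1 probe (chr2:23048648-23048707) are unbroken in the genome. The capitals in the Yme1l1 probe mark the 15 bases that code for the zinc-binding motif of its metalloprotease domain, a histidine and a glutamate, 2 other residues and a further histidine.
Opa1 A_52_P547795: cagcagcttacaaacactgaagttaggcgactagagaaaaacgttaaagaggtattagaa
Mff A_55_P2739683: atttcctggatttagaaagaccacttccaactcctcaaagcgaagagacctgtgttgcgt
Mfn1 A_55_P2609846: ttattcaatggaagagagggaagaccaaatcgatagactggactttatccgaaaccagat
Fis1 A_51_P291866: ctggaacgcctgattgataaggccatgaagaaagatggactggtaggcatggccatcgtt
Yme1l1 A_52_P444849: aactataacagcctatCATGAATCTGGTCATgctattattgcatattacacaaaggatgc

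Of the 25 probes, 21 had a signal well above background in 3 or more arrays and entered the test, and these covered 9 of the 10 genes. Each gene was represented by its brightest tested probe, by mean level over all 6 arrays, both groups included. At those probes 2 of the 9 genes passed the test as higher in Atg5f/f;Vav, Mfn1 and Pgam5, and none as lower. For Oma1 the choice of probe depended on the group. Its other probe, A_65_P09246, which passed as lower (-0.78), was the brighter in control (-0.48 against -0.86). In Atg5f/f;Vav it was the dimmer (-1.25 against -0.71). The positive value of Oma1 and the absence of a gene called lower thus rest on this choice. Of all 16090 genes tested, 20.1% passed as higher and 14.4% as lower, so the members' count of calls is close to the background. The median log2 fold change of the 9 genes was 0.16, against -0.0063 over all genes, and the largest was 0.60. Control and Atg5f/f;Vav levels lay apart for Mfn1, Pgam5 and Yme1l1, 3 of the 9 genes, as they did for 57.2% of all genes. All 9 values were above 0, from 0.02 for Dnm1l to 0.60 for Mfn1, but this direction depends on the scaling: with the 75th percentile taken over the probes above background on all 6 arrays, the median of all genes moved to -0.21, 12.1% of genes passed as higher and 27.8% as lower, and only 3 of the 9 member genes stayed above 0, and with quantile normalisation 5 did. Relative to the median of all genes, the members' median was 0.16 higher, and 0.10 higher with quantile normalisation. The change of percentile cannot alter this difference, since either percentile subtracts 1 value per array from all genes alike.

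**Figure D1:**
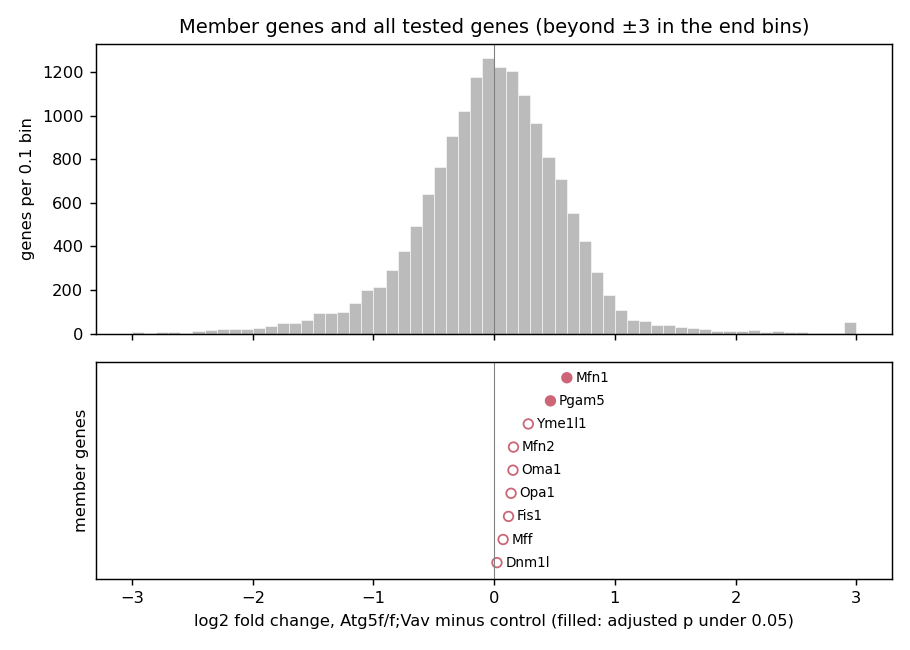
The upper panel counts all 16090 tested genes by log2 fold change (Atg5f/f;Vav minus control, in bins of 0.1), and the lower panel places the 9 member genes on the same axis, filled where the adjusted p was under 0.05. The members lie between 0.02 and 0.60, inside the body of the distribution, and the 2 filled points are Mfn1 and Pgam5.

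At the level of single probes the members were less uniform. Of the 21 tested probes, 5 passed as higher, at Opa1, Mfn1, Pgam5 and Mff (with 2 probes), and 2 as lower, at Oma1 and Mfn2. Over all 32074 probes 17.3% passed as higher and 17.1% as lower. The groups did not overlap at 10 of the 21 probes, against 55.4% of all probes. The range ran from -0.78 at an Oma1 probe to 0.85 at an Opa1 probe, with a median of 0.14 against -0.06 over all probes. The 15 tested member probes assigned to a RefSeq mRNA all had values above 0, of which 4 passed the test. This direction again depends on the scaling. With the percentile over probes above background on all 6 arrays several of them, both Fis1 probes included, were below 0. The 6 others, assigned to cDNA clones or predicted transcripts, were split into 3 above and 3 below 0, with 1 passing as higher and 2 as lower. Over all probes the median was likewise higher for the 19734 on a RefSeq mRNA, at 0.05, than for the 12340 others, at -0.23. Of the 19734, 4441 passed as higher and 2545 as lower (35.4% together). Of the 12340 others, 1099 passed as higher and 2939 as lower (32.7% together).

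**Figure D2:**
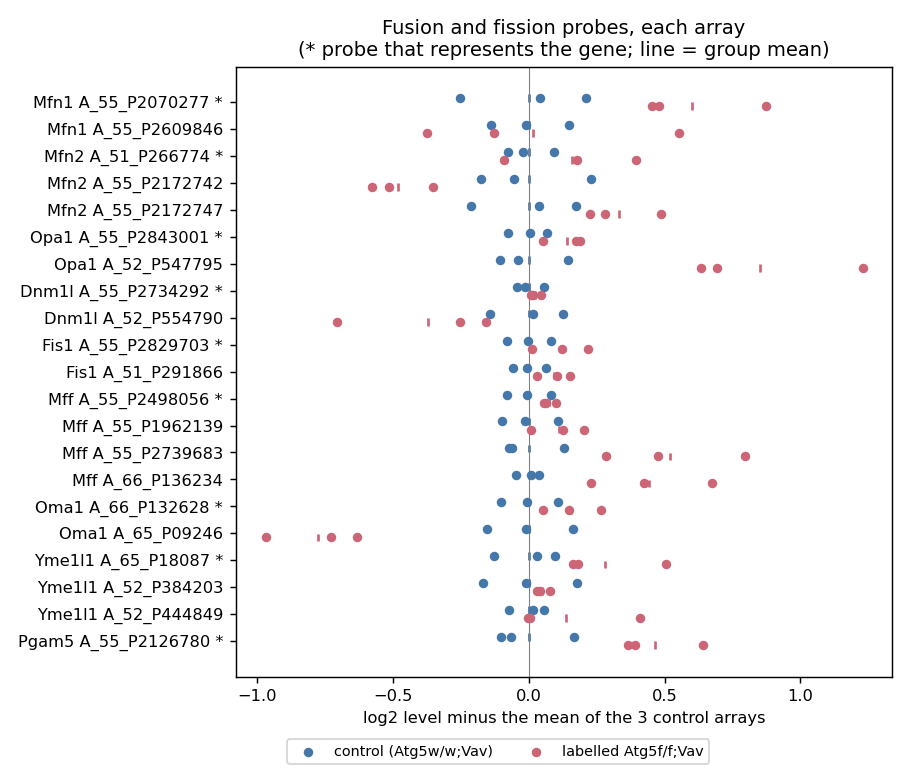
Points are the 6 arrays at each of the 21 tested probes, as log2 level minus the mean of the 3 control arrays, with a short line at each group mean and an asterisk at the probe that represents its gene. The Atg5f/f;Vav points lie to the right of all control points for the called Opa1, Mfn1, Pgam5 and Mff probes and to the left for the called Oma1 and Mfn2 probes, while those of the Fis1 probes mix with the controls.

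Among the fusion genes, Mfn1, a mitofusin that tethers and joins outer membranes, was higher at its representing probe and not at the other. The representing probe A_55_P2070277 (chr3:32476215-32476274, from base 2598 of its transcript) read 0.07, -0.22 and 0.24 in control and 0.51, 0.48 and 0.90 in Atg5f/f;Vav. All 3 Atg5f/f;Vav arrays lay above all 3 control arrays, with a log2 fold change of 0.60 ± 0.17 (SE, limma adjusted p = 0.038), a 1.52-fold difference. The coding probe A_55_P2609846, from base 1321 and printed above, read -3.65, -3.94 and -3.81 in control and -4.17, -3.92 and -3.25 in Atg5f/f;Vav. There the groups overlapped, and the log2 fold change of 0.017 had a 95% interval from -0.55 to 0.59.

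Mfn2, the second mitofusin, which also links mitochondria to the endoplasmic reticulum, had 3 tested probes that pointed both ways. Its representing probe A_51_P266774 (chr4:147247695-147247748) read 0.71, 0.65 and 0.82 in control and 0.64, 0.91 and 1.12 in Atg5f/f;Vav, with overlapping groups and a log2 fold change of 0.16 (95% interval -0.19 to 0.51). A neighbouring probe, A_55_P2172747 (chr4:147248131-147248190), had a log2 fold change of 0.33 that did not pass (limma adjusted p = 0.108), with groups that did not overlap. The probe A_55_P2172742 (chr4:147255665-147255724), assigned to the cDNA clone AK049583 and to no RefSeq mRNA, read -2.46, -2.18 and -2.59 in control and -2.99, -2.76 and -2.92 in Atg5f/f;Vav. It was lower in every Atg5f/f;Vav array, at -0.48 ± 0.14 (SE, limma adjusted p = 0.0398), but did not pass after normexp background correction (-0.28, limma adjusted p = 0.105) or quantile normalisation (-0.23, limma adjusted p = 0.194).

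Opa1, the GTPase of inner membrane fusion, gave the largest value of all member probes at the junction probe printed above, which starts at base 2891 of its transcript. A_52_P547795 read -0.21, -0.27 and -0.02 in control and 0.46, 0.52 and 1.06 in Atg5f/f;Vav. Every Atg5f/f;Vav array lay above every control array, replicate 3 the farthest, and the log2 fold change was 0.85 ± 0.18 (SE, limma adjusted p = 0.0189), a 1.80-fold difference. Without Atg5f/f;Vav replicate 3 it was 0.66 (limma adjusted p = 0.0164). The brighter Opa1 probe A_55_P2843001 (chr16:29654613-29654672), from base 5926, read 1.54, 1.62 and 1.68 in control and 1.80, 1.67 and 1.79 in Atg5f/f;Vav. Its groups overlapped, and its log2 fold change of 0.14 had a 95% interval from -0.11 to 0.39. The remaining Opa1 probe, A_52_P153645, was not well above background on any array and was not tested.

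**Figure D3:**
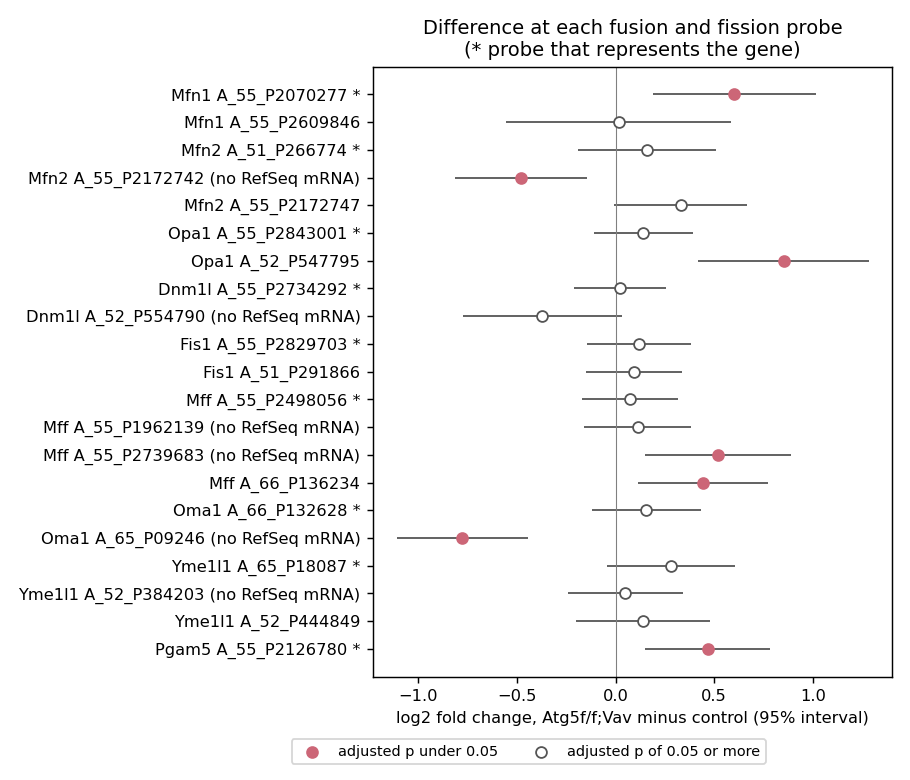
Each point is the log2 fold change at a member probe (Atg5f/f;Vav minus control) with its 95% interval, filled where the limma adjusted p was under 0.05. The 2 filled points on the left, at Oma1 (-0.78) and Mfn2 (-0.48), belong to probes with no RefSeq mRNA, and the highest point is the Opa1 junction probe (0.85).

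The fission genes moved little at their representing probes, which all had intervals that included 0. Dnm1l, which encodes DRP1, read 2.22, 2.25 and 2.32 in control and 2.31, 2.28 and 2.28 in Atg5f/f;Vav at A_55_P2734292 (chr16:16312363-16312422). These 6 levels overlapped, with a log2 fold change of 0.023 and a 95% interval from -0.21 to 0.26. Its second probe, A_52_P554790 (chr16:16336911-16336970, assigned to the cDNA clone BC027538), was lower by a log2 fold change of -0.37 with groups that did not overlap, and did not pass (limma adjusted p = 0.128). Fis1, an outer membrane protein anchored by its C-terminus, was the member whose probes agreed best. A_55_P2829703 (chr5:137442037-137442096) read 4.90, 4.97 and 5.06 in control and 5.10, 5.20 and 4.99 in Atg5f/f;Vav, a log2 fold change of 0.12 (95% interval -0.14 to 0.38), and the junction probe printed above gave 0.09 (-0.15 to 0.34).

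Mff, the outer membrane receptor that brings DRP1 to mitochondria, had 4 tested probes, of which 2 passed as higher and 2 did not. The representing probe A_55_P2498056 (chr1:82748825-82748884) read 3.27, 3.20 and 3.36 in control and 3.33, 3.34 and 3.38 in Atg5f/f;Vav, with a log2 fold change of 0.07 (95% interval -0.17 to 0.32). A_55_P1962139, which lies just before it (chr1:82748724-82748783), gave 0.11 (-0.16 to 0.38). A_66_P136234 (chr1:82748286-82748345) read 1.36, 1.31 and 1.39 in control and 1.78, 1.58 and 2.03 in Atg5f/f;Vav, so that all Atg5f/f;Vav arrays were above all control arrays. Its log2 fold change was 0.44 ± 0.14 (SE, limma adjusted p = 0.0461). The junction probe A_55_P2739683, assigned to the cDNA clone AK184380, read 0.10, -0.10 and -0.09 in control and 0.44, 0.25 and 0.76 in Atg5f/f;Vav, a log2 fold change of 0.52 ± 0.16 (SE, limma adjusted p = 0.0421). With the replicate number as a block these values were 0.0522 and 0.061, so neither Mff probe passed. The remaining Mff probe, A_52_P639540, was not well above background on any array.

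Gdap1, an outer membrane protein best known from nerve cells and from an inherited neuropathy, had no measured level. Its probes A_66_P128088 and A_55_P2907396 were not well above background on any of the 6 arrays, and neither was tested.

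The proteases that cut OPA1 did not pass at their representing probes. Oma1, the zinc metalloprotease that cuts OPA1 when the membrane potential is lost, read -0.87, -0.96 and -0.75 in control and -0.60, -0.81 and -0.71 in Atg5f/f;Vav at A_66_P132628 (chr4:103038974-103039033). The groups overlapped, with a log2 fold change of 0.16 (95% interval -0.12 to 0.43). A second Oma1 probe, A_65_P09246 (chr4:103026446-103026505), assigned to the cDNA clone AK028706, moved the other way. It read -0.32, -0.49 and -0.63 in control and -1.11, -1.21 and -1.45 in Atg5f/f;Vav, a log2 fold change of -0.78 ± 0.14 (SE, limma adjusted p = 0.0161), with every Atg5f/f;Vav array below every control array. This probe holds a stop codon in all reading frames of its printed strand, so its 60 bases are not wholly coding. The same held for 6 tested member probes in all, with log2 fold changes from -0.78 to 0.60. The others were the representing probes of Dnm1l, Mfn1, Mfn2, Opa1 and Yme1l1, all assigned to a RefSeq mRNA. When all tested probes of a gene were averaged, Oma1 stood at -0.31 (limma adjusted p = 0.0598) and Dnm1l at -0.17 (limma adjusted p = 0.252), both below 0.

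Yme1l1, the ATP-dependent protease that cuts OPA1 at a site of its own, read 0.62, 0.46 and 0.68 in control and 0.77, 0.75 and 1.09 in Atg5f/f;Vav at A_65_P18087 (chr2:23052695-23052754). The groups did not overlap, and the log2 fold change of 0.28 did not pass (95% interval -0.04 to 0.61, limma adjusted p = 0.143). The probe over its zinc-binding motif, printed above, gave 0.14 (-0.20 to 0.48), with only Atg5f/f;Vav replicate 3 above all control arrays. A_52_P384203, on no RefSeq mRNA, gave 0.05 (-0.24 to 0.34).

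Pgam5, a phosphatase of the mitochondrial membrane, had 1 probe, A_55_P2126780 (chr5:110688192-110688251). It read 2.67, 2.71 and 2.94 in control and 3.16, 3.14 and 3.41 in Atg5f/f;Vav. All Atg5f/f;Vav arrays were above all control arrays, with a log2 fold change of 0.47 ± 0.13 (SE, limma adjusted p = 0.0367), a 1.38-fold difference. After quantile normalisation it was 0.19 (limma adjusted p = 0.18) and did not pass.

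The difference between probes of 1 gene was then taken within each array, which removes the scaling of the array, in comparisons chosen after the values above had been seen. In 12 comparisons of a probe with the representing probe of its gene, the groups did not overlap in 9. The share over such pairs of all genes was not computed, and at single probes the groups lay apart for 55.4% of all probes. Pairs of 1 gene also share the representing probe, so the count is not read as a result about the members. For Oma1 the clone probe minus the mRNA probe was 0.55, 0.47 and 0.12 in control and -0.52, -0.40 and -0.73 in Atg5f/f;Vav, a change of -0.93. For Opa1 the junction probe minus the brighter probe was -1.75, -1.89 and -1.71 in control and -1.34, -1.14 and -0.73 in Atg5f/f;Vav, a change of 0.71. The same quantity changed by -0.64 between the clone probe and the representing probe of Mfn2, by -0.59 for Mfn1, by 0.45 and 0.37 at the Mff probes A_55_P2739683 and A_66_P136234, and by -0.39 for Dnm1l. It was -0.02 for Fis1, whose groups overlapped. With 3 arrays against 3 the 2-sided exact permutation test cannot go below 0.1, which 9 comparisons reached (0.133 after Benjamini-Hochberg adjustment over the 12). Such spread within a gene was common on these arrays: among 6965 genes with 2 or more tested probes the median range of log2 fold changes was 0.37. Oma1, at 0.93, was wider than or equal to 89.9% of them, Mfn2 85.1%, Opa1 79.9% and Mfn1 71.2%. The shares were 58.4% for Mff, 52.8% for Dnm1l, 34.4% for Yme1l1 and 4.03% for Fis1. Genes were not matched for their number of probes, with which a range can grow.

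**Figure D4:**
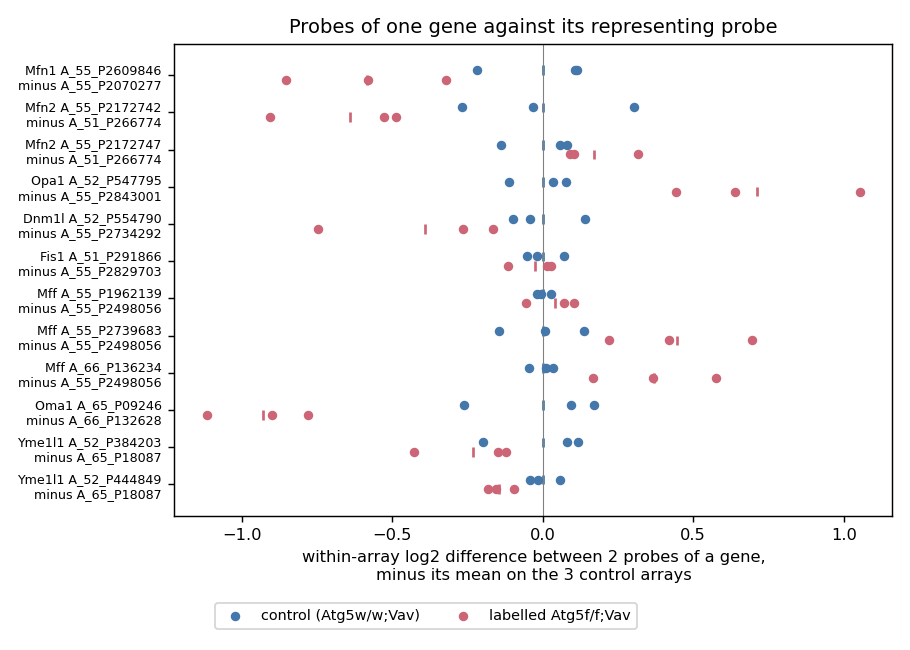
Points are the within-array log2 differences between a probe and the representing probe of its gene, minus the mean of the 3 control arrays, for 12 pairs of probes. The arrays labelled Atg5f/f;Vav lie apart from the controls for the Oma1, Opa1, Mfn1, Mfn2 and Dnm1l pairs and mix with them for Fis1.

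The calls at member probes rested on small groups. Leaving out control replicate 1 or control replicate 2 left none of the 7 called probes past the threshold, with limma adjusted p-values of 0.0703 and 0.076 for the Opa1 junction probe, and the share of all genes called fell from 34.5% to 0.764% and 0.586%. The log2 fold changes kept their sign, from 0.66 to 0.96 for Opa1, from -0.85 to -0.68 for the Oma1 clone probe, from 0.47 to 0.71 for Mfn1 and from 0.38 to 0.55 for Pgam5, over the 6 omissions. The Opa1 and Oma1 probes passed in 4 of these 6, Mfn1 and Pgam5 in 2, and the Mff probes and the Mfn2 clone probe in 1. Mfn1 also lost its call without Atg5f/f;Vav replicate 2 (limma adjusted p = 0.0547) and without replicate 3 (0.0653), and Pgam5 likewise (0.0594 and 0.0623). With the percentile over probes above background on all 6 arrays, Mfn1 (0.40, limma adjusted p = 0.0742), Pgam5 (0.26, 0.0988) and the Mff probes (0.31, 0.125, and 0.24, 0.156) did not pass, and the Dnm1l clone probe passed as lower. The mean of both Mfn1 probes gave 0.31 (limma adjusted p = 0.246).

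**Figure D5:**
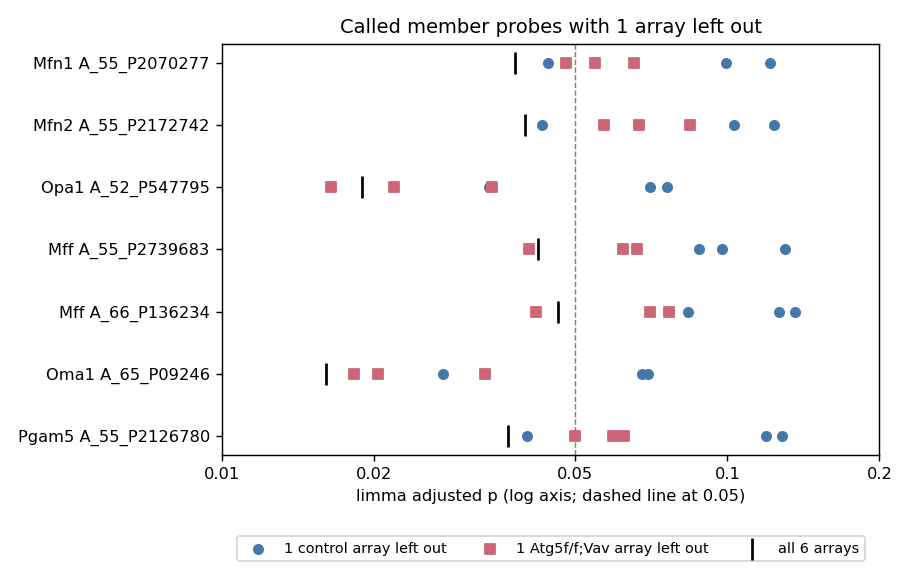
For the 7 called member probes, the black bar is the limma adjusted p with all 6 arrays and each symbol the value with 1 array left out, on a log axis with a dashed line at 0.05. The omission of control replicates 1 and 2 put every probe to the right of the line, and the Opa1 and Oma1 probes stayed left of it in the 4 other omissions.

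Genes that act with the members were described from lists of known partners, each gene at its brightest tested probe. Of the 43 tested, 21 passed as higher and 1 as lower (51.2% in both directions together), where 20.1% of all genes passed as higher and 14.4% as lower. Their median log2 fold change was 0.41, against -0.0063 over all genes. The 9 inner membrane partners of OPA1 had the highest median, 0.78, and 8 of them passed as higher. They included Phb (1.22 ± 0.18, SE) and Phb2 (1.01 ± 0.16), the prohibitins that scaffold the inner membrane and hold back the cutting of OPA1, and Afg3l1 (0.83 ± 0.18), a subunit of the matrix-facing protease (limma adjusted p = 0.0138, 0.0147 and 0.0198). Of 11 modifiers of DRP1 and the mitofusins, 7 passed as higher and 1 as lower, with a median of 0.55. Among them were Cdk1 (0.94 ± 0.19), the mitotic kinase that phosphorylates DRP1, the outer membrane ubiquitin ligase Mul1 (0.79 ± 0.11) and Park2 (0.67 ± 0.11), which encodes parkin, while Ppp3ca, the catalytic subunit of calcineurin, which removes a phosphate from DRP1, was lower (-0.49 ± 0.15, limma adjusted p = 0.0474).

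Of 6 helpers of fusion, 3 passed as higher, a small list to set against the 20.1% of all genes, with a median of 0.43: Stoml2 (0.69 ± 0.13, SE), a scaffold protein of the inner membrane, Msto1 (0.68 ± 0.13) and Fam73b (0.61 ± 0.13). Of 11 helpers of fission, 3 passed as higher (27.3%, close to the 20.1% of all genes), with a median of 0.30: Mtfp1 (1.22 ± 0.26), Mtfr1 (0.51 ± 0.12) and Mief1 (0.41 ± 0.10), an adaptor that recruits DRP1. None of 6 genes of mitochondrial transport passed at its brightest probe, with a median of 0.22, and their limma adjusted p-values began at 0.134. Other probes of the related genes were not always called as the brightest was. Where the brightest did not pass, 1 of 3 Rhot2 probes, 1 of 3 Fam73a probes and 2 of 6 Huwe1 probes passed as lower. The brightest Fam73a probe was itself at -0.13. On the higher side were 1 of 3 Kif1b probes, 2 of 3 Mtfr1l probes and 1 of 3 Immt probes. Of the genes named as higher, only 1 of 3 Park2, 1 of 2 Phb2, 1 of 2 Mul1 and 4 of 5 Afg3l1 probes passed, all as higher. No related gene had probes called in both directions. Without control replicate 1 or 2 none of the 43 related genes passed, and only 0.764% and 0.586% of all genes did. With the percentile over probes above background on all arrays 17 of the 43 passed, close to the 39.9% of all genes.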

How the data were processed

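Total RNA of sorted LSK cells was labelled with Cy3 and hybridised to 6 arrays. Per the file headers, the authors used Agilent Feature Extraction 12.0.3.1 to give each spot a background-corrected intensity, with probe positions on mm9. The deposited table holds a normalised signal that differs from this intensity by 1 factor per array (spread at most 0.000267%).

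The 75th percentile of the non-control spots of an array (651.7 to 746.2 in control, 620.3 to 881.4 in Atg5f/f;Vav) was subtracted from its log2 intensities. Spots flagged as outliers, 64 to 81 on each array, were removed, spots of 1 probe were averaged, and saturation did not occur. A probe entered the test if its signal was well above background on 3 or more arrays. The model was fitted by lmFit and eBayes of limma 3.58.1 (R 4.3.3), after it had been tested on simulated data, and 2-sided p-values were adjusted by Benjamini-Hochberg over 32074 probes, with a threshold of 0.05. Arrays give no read depth, and their number limits the precision.

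All 10 members were named with all their probes, as were Atg5 and, from each related list, at most 3 genes in each direction past the threshold. Rhot2, Fam73a, Huwe1, Kif1b, Mtfr1l and Immt were added for calls at probes other than the brightest, which itself did not pass. Members and lists were chosen with earlier results of these data known. Array symbols (Fam73b, Park2) can be old. Alternatives were normexp correction (offset 50), quantile normalisation, another percentile, the deposited values, other filters, flagged spots kept, an intensity trend, the methods' t-test, a replicate block, omission of each array and the mean of a gene's probes. Exon and UTR positions of probes were not analysed here.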

Additional observations from a re-analysis of the deposited data

How the results depend on the processing

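With the deposited values, a filter on all 6 arrays, flagged spots kept or an intensity trend, the 21 member probes kept their direction and their side of the threshold. The counts of member genes and member probes past the threshold were 2 and 7 as reported, where 34.5% of all genes passed. They were 1 and 4 with quantile normalisation (26.2% of all genes). With the 75th percentile over probes above background on all 6 arrays they were 0 and 4 (39.9%), and with no filter on dim probes 0 and 2 (11.8%). The methods' t-test after Benjamini-Hochberg adjustment gave 0 and 0, and called 0 of 32066 probes (unadjusted, 2 and 7, and 13539 probes). With 1 array left out the counts ranged from 0 to 2 genes and from 0 to 5 probes, and the related genes past the threshold from 0 to 23 (22 with all arrays). The share of all genes ranged from 0.586% to 33.8% over these omissions. Without Atg5f/f;Vav replicate 2 the counts were 0 and 4 (24.3% of all genes), and without Atg5f/f;Vav replicate 3 they were 0 and 2 (29.8%). The cause was not tested, except that the test without a filter adjusts over 56605 probes.

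Directions that turned belonged to probes that had not passed, and none passed after turning. With quantile normalisation these were Dnm1l A_55_P2734292 (-0.17), Fis1 A_51_P291866 (-0.10) and A_55_P2829703 (-0.25), Mff A_55_P1962139 (-0.060) and A_55_P2498056 (-0.21) and Opa1 A_55_P2843001 (-0.017). With the other percentile, which moved the median of the member genes to -0.050, they were Dnm1l A_55_P2734292 (-0.18), Fis1 A_51_P291866 (-0.11) and A_55_P2829703 (-0.087), Mff A_55_P1962139 (-0.093) and A_55_P2498056 (-0.13), Mfn1 A_55_P2609846 (-0.19), Mfn2 A_51_P266774 (-0.046), Oma1 A_66_P132628 (-0.050), Opa1 A_55_P2843001 (-0.066) and Yme1l1 A_52_P384203 (-0.16) and A_52_P444849 (-0.068). Yme1l1 A_52_P384203 was at -0.057 with normexp correction and ranged from -0.033 to 0.14 with 1 array left out, and Mfn1 A_55_P2609846 from -0.25 to 0.21. The mean of the tested probes gave -0.17 for Dnm1l and -0.31 for Oma1.

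The labels number the replicates 1 to 3 in both groups, without saying that a number was shared. Deviations of same-numbered arrays correlated at -0.065, 0.19 and 0.11, and those of differently numbered arrays at -0.30 to 0.13. With 3 arrays per group these values cannot settle whether the samples were paired. As the labels state no pairing, the numbers were not taken to pair the samples. With the replicate block 2 member genes and 5 member probes passed, where 31.9% of all genes did. Slide and scan could not be fitted as blocks, since there was 1 of each.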
